A study of Mus musculus with 8 samples.

Results

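Megakaryocyte progenitors made up 928 of the 29891 cells that were sequenced from a sort of mouse bone marrow stem and progenitor cells. A cell was a member when it held at least 3 UMIs of Pf4, at least 1 UMI of Itga2b, at least 1 UMI of Gp1bb and Gp9 together and none of Ermap, a gene of the erythroid lineage. A UMI (unique molecular identifier) is the tag that lets amplified copies of a captured transcript be counted once. The gate used measured counts, so the levels of these genes in the members describe the choice and were not tested against other cells. The marrow came from female C57BL/6 (B6) mice of 3 to 4 months, with no altered allele given in the labels. SPF mice stayed in a specific-pathogen-free facility, and CVT mice were moved to a conventional facility and kept there for 1 month, co-housed with mice born in it. Cells were sorted as CD117+ and as lacking CD3, CD4, CD8, CD45R, CD11b, TER119 and GR1 (KL cells). Each housing group had 10 mice, combined as 2 or 3 mice in each of 4 pools, and a pool is the replicate of every comparison. The sort keeps cells with surface CD117, so megakaryocytes that have lost it were not sampled.

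Megakaryocytes are the large polyploid cells of the marrow that shed platelets. Their progenitors arise from stem cells and from precursors shared with the erythroid lineage, and the cytokine thrombopoietin drives them. On the way they turn on adhesion receptors for collagen, fibrinogen and von Willebrand factor, fill granules with chemokines and clotting proteins, and copy their DNA repeatedly without dividing. GATA1, FLI1, RUNX1 and TAL1 are among the transcription factors that switch these genes on.

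The pools held between 1888 and 4845 cells and between 19041749 and 59812346 UMIs. The members held a median of 9327 UMIs each against 8940 in the other cells, and their lowest and highest totals were 3346 and 49732. A total of 522 cell barcodes occurred in more than 1 pool, 37 members had a barcode that was also used in another pool, and 2 had one that marked a member there. A UMI of the neutrophil gene S100a8 was present in 92.2% of members and in 93.2% of other cells, so a UMI of a very abundant gene says little about the cell that holds it. Only 4 members (0.431%) had a UMI of the stem cell gene Procr, and 3 met a gate for stem cells (Procr with Hlf or Mecom). A UMI of Hlf or Mecom, the other genes of that gate, was held by 242 members (26.1%).

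Pf4, the chemokine platelet factor 4, was the main gate gene, and its count varied widely among the members. The lowest member held 3 Pf4 UMIs, the median 29 and the highest 1423, with quartiles of 9 and 69. Summed over the members of a pool and scaled to CPM (the gene's UMIs divided by all UMIs of those cells and set to a common total), Pf4 stood at 4690, 5605, 4666 and 4646 CPM in SPF pools 1, 2, 7 and 8. In CVT pools 3, 4, 5 and 6 it stood at 4378, 4840, 5348 and 7004 CPM. The groups overlapped, and CVT pool 6 was the highest of all. In the other cells Pf4 had a mean of 32.3 CPM over pools, and 14.8% of those cells held a UMI of it while 1.29% held 3 or more. Members at the edge of the gate differed from the rest in more than Pf4. The 63 members with exactly 3 Pf4 UMIs had Vwf in 6.35% of cells and Itga2b at 250 CPM, the 140 cells with 2 Pf4 UMIs that met the other conditions had Vwf in 11.4% and Itga2b at 240 CPM, and all members together had Vwf in 42.1% and Itga2b at 365 CPM. The 25 cells kept out by Ermap alone had Car1, an erythroid carbonic anhydrase, at 1208 CPM, against 56.3 CPM in the members.

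The other gate genes make the receptors through which platelets bind. Itga2b encodes the alpha chain of the fibrinogen receptor, and its level lay between 337 and 428 CPM in the members of the 8 pools, with overlapping groups. Gp1bb and Gp9 encode parts of the receptor for von Willebrand factor. Gp1bb was found in 83.7% of members and Gp9 in 73.7%, and 57.4% (533 cells) held both. Gp1bb lay between 181 and 236 CPM in 7 pools and at 497 CPM in CVT pool 6, and Gp9 between 134 and 154 CPM in those 7 pools and at 315 CPM in CVT pool 6. Both were thus highest in the same pool.

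Because the 4 gate genes mark the same cells, the 250 bases before their transcription starts are printed to show which letters they share. The sequences are from RefSeq on GRCm38.p6 and were matched by symbol, while the submitters' processing notes name mm9 for the counts. Capitals mark GATAA, the core of a GATA factor site, and GGAA, the core of an ETS factor site such as that of FLI1, each searched on both strands (TTATC and TTCC on the other). Each line runs 5′ to 3′ in the direction of the gene.
Pf4, chr5:90772185-90772434, plus strand: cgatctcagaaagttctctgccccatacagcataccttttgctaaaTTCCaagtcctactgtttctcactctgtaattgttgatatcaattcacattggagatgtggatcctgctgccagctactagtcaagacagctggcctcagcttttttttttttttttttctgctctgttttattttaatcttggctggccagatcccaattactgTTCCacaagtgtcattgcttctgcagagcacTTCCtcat
Itga2b, chr11:102469884-102470133, minus strand: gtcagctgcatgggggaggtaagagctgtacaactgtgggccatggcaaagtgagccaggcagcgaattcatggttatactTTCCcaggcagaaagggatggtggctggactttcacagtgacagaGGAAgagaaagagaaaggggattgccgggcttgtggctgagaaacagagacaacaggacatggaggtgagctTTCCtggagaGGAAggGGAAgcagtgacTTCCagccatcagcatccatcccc
Gp1bb, chr16:18622404-18622653, minus strand: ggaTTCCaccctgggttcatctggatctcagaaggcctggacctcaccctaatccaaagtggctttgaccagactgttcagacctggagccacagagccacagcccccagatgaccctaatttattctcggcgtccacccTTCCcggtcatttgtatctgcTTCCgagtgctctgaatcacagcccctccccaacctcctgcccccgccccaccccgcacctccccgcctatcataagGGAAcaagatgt
Gp9, chr6:87777820-87778069, plus strand: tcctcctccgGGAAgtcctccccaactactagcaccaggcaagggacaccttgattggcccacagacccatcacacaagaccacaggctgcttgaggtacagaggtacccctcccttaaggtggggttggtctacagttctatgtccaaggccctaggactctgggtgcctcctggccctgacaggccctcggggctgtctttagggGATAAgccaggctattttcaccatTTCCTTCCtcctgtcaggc

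GGAA occurred in all 4 windows, 3 times before Pf4, 6 times before Itga2b, 4 times before Gp1bb and 3 times before Gp9. Of 32536 distinct windows of this length, 93.4% held it, with a median of 3 matches, so its presence sets no gene apart. GATAA occurred only before Gp9, starting 43 bases before the transcription start (base -43), and 22.5% of all windows held it. A match describes these letters and is not a binding site.

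The label was checked against genes that the gate did not use. Vwf, the adhesive protein of platelet granules and a defining marker, stood at 72.6, 56.4, 76.6 and 124 CPM in CVT pools 3 to 6 and at 82.0, 63.9, 52.9 and 63.9 CPM in SPF pools 1, 2, 7 and 8. In the other cells it lay between 1.49 and 2.81 CPM, and no pool of members reached down to that range. A Vwf UMI was found in 42.1% of members and in 2.24% of other cells, at median depths of 9327 and 8940 UMIs. It was found in 3.403% of stem-gated cells (median 6285 UMIs), in 4.85% of erythroid-gated cells, which hold Car1 and Ermap (median 17880 UMIs), and in 1.24% of granulocyte-gated cells, which hold at least 3 UMIs each of Elane and Mpo. Vwf was thus detected in less than a majority of members, and least often near the lower edge of the Pf4 gate. Of 9278 genes of at least 5 CPM, 4.20% were at least 2 times higher in members than in the other cells and 5.24% at least 2 times lower, which the gate itself in part sets.

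**Figure D1:**
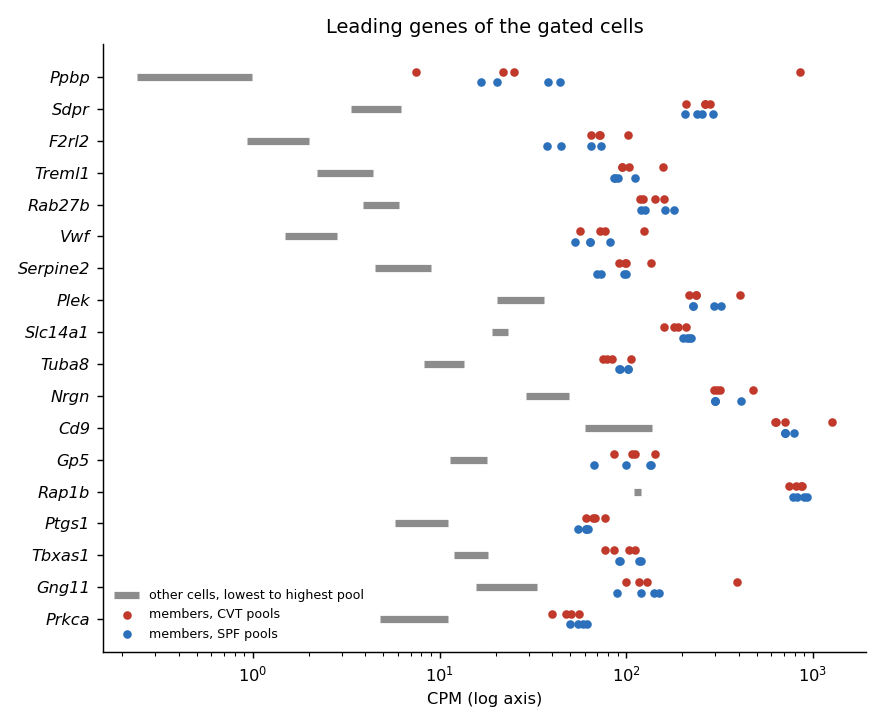
Level in CPM (log axis) of 18 of the 20 genes with the largest ratio of members to other cells among those of at least 50 CPM, gate genes left out. Each point is a pool (CVT red, SPF blue) and the grey bar spans the pools of other cells. Every pool of members lies above the grey bar, and the Ppbp point of CVT pool 6, at 854 CPM, stands far from the other pools.

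Platelet receptors and their partners were among the genes that the members shared. With the gate genes left out, 14 of 15 listed receptor genes of at least 5 CPM were at least 2 times higher in members than in other cells, with a median log2 ratio of 2.45 against 0.08 over all 9278 genes. Gp5, the last part of the von Willebrand factor receptor, had a mean of 110 CPM over pools in members and 14.03 CPM in other cells. Treml1, a receptor of platelet granule membranes, had 103 and 2.98 CPM. F2rl2, a thrombin receptor, had 66.4 and 1.54 CPM, and F2r, another member of that family, had 132 and 23.4 CPM. Cd9, a tetraspanin abundant on platelets, was at 770 CPM in members and 95.1 CPM in others. A UMI of Cd9 was found in 97.7% of members and one of F2r in 69.6%. A single member held 11.8% of the members' Cd9 UMIs, and CVT pool 6 stood at 1263 CPM against 626 to 794.5 CPM in the other pools. The listed receptor gene that was not at least 2 times higher was Pecam1, an adhesion molecule of several blood cells, at 21.1 CPM in members and 30.7 CPM in others.

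Without Pf4, 11 of 13 listed genes of granule and secreted proteins were at least 2 times higher in members. Nrgn, which encodes neurogranin, had 339 CPM in members and 40.4 CPM in other cells, and Serpine2, an inhibitor of thrombin, had 95.6 and 7.12 CPM. Mmrn1, which encodes the factor V carrier of platelets, had 46.8 CPM in members, 26.8 CPM in the stem gate and 3.21 CPM in all other cells. Srgn, the granule proteoglycan of many blood cells, was 1005 CPM in members and 825 CPM in others. F13a1, the clotting factor XIII chain, went the other way, with 6.33 CPM in members and 70.9 CPM in other cells.

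Genes of the platelet cytoskeleton and of signalling were divided between those present and those nearly absent. The membrane protein gene Sdpr had 251 CPM in members and 4.76 CPM in others, Rab27b, a GTPase of granule transport, 141 and 4.92 CPM, and Plek, the platelet kinase substrate pleckstrin, 272 and 27.8 CPM. Rap1b, the GTPase that activates the fibrinogen receptor, was found in 97.8% of members at 842 CPM against 114 CPM in others. Ptgs1 and Tbxas1, which make thromboxane, had 64.0 and 99.8 CPM in members against 8.92 and 14.9 CPM in others. In the stem gate they had 29.4 and 57.9 CPM. Tubb1, the tubulin of the platelet marginal band, had a UMI in 0.108% of members, which is 1 cell, and Myl9, a myosin light chain of mature megakaryocytes, likewise in 0.108%. Gng11, a G protein subunit of platelet signalling, had 155 CPM in members, 107 CPM in the stem gate and 23.8 CPM in all other cells. A single member held 21.8% of the members' Gng11 UMIs, and CVT pool 6 stood at 391 CPM. In members and other cells, the protein kinase gene Prkca had 52.6 and 7.63 CPM, and the alpha tubulin gene Tuba8 91.9 and 9.90 CPM. Slc14a1, a urea transporter, had 199 and 21.3 CPM. Of 20 listed genes of at least 5 CPM, 16 were at least 2 times higher in members.

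The transcripts of Ppbp, Thbs1, Alox12 and Clec1b were concentrated in a single cell. In CVT pool 6, the member with 49732 UMIs held 1423 UMIs of Pf4, 1175 of Ppbp (the platelet basic protein), 344 of Thbs1 (thrombospondin), 343 of Clec1b (the podoplanin receptor), 268 of Gp9, 120 of Myl9, 106 of Itgb3 (the beta chain of the fibrinogen receptor), 85 of Alox12 (platelet lipoxygenase) and 44 of Vwf. It held no UMI of Mki67 or Top2a, and its Scrublet score, a measure of likeness to simulated pairs of cells, was 0.0339. That cell carried 84.5% of the members' Ppbp UMIs, 88.2% of those of Thbs1, 88.5% of Alox12, 72.5% of Clec1b and 24.7% of Itgb3. In all, 7 members held 5 or more Ppbp UMIs, and the next highest had 12. Housing values of Clec1b, Ppbp, Gp1bb and Vwf are given later with and without the members with 5 or more Ppbp UMIs, of which it is 1.

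The transcription factors of the lineage were less distinct than the receptors. Of 21 listed, 6 were at least 2 times higher in members and 2 at least 2 times lower, with a median log2 ratio of 0.67. Fli1 had 194 CPM in members, 67.6 CPM in the stem gate and 9.39 CPM in the erythroid gate. Mef2c had 626 CPM against 161 CPM in other cells, and Meis1 225 against 58.2 CPM. Zfpm1, the cofactor FOG1, had 87.6 against 30.2 CPM, and Gata2 175 against 76.1 CPM, though Gata2 reached 293 CPM in cells gated for Gata2 and Apoe without Pf4. Gata1, which serves both lineages, was at 51.0 CPM in members, 43.9 CPM in others and 106 CPM in the erythroid gate. Klf1, the erythroid factor that opposes Fli1, had 12.4 CPM in members against 99.3 CPM in others, and Myb, which holds back megakaryocyte formation, had 96.7 against 202 CPM.

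Of 22 listed genes of thrombopoietin and cytokine signalling of at least 5 CPM, 2 were at least 2 times higher in members and 3 at least 2 times lower. Ifngr1, a chain of the interferon gamma receptor, had 53.4 CPM in members against 162 CPM in others. Kit, which encodes CD117, had 59.6 CPM in members and 76.4 CPM in others. Among stem cell genes, Slamf1 (CD150) had 17.01 against 5.13 CPM, Mycn 63.7 against 12.3 CPM and Tcf15 13.6 against 1.48 CPM, while Cd34 had 49.4 against 171 CPM and Ly6a (Sca-1) 3.44 against 17.8 CPM.

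Proliferation genes were close to those of the other cells. Of 23 listed genes of G2, mitosis and cytokinesis, none was 2 times higher and 1 was at least 2 times lower, with a median log2 ratio of -0.04. The exception was Ect2, a regulator of cytokinesis whose loss accompanies endomitosis, at 2.98 CPM in members and 10.2 CPM in others, lower in 8 of 8 pools. Mki67 was at 119 against 102 CPM and Top2a, the topoisomerase of dividing cells, at 237 against 206 CPM. The 16 S phase genes had a median log2 ratio of 0.12, and none passed 2 times in either direction.

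Markers of other lineages were mostly low. Of 18 listed erythroid genes of at least 5 CPM, 13 were at least 2 times lower in members, and their summed level lay between 959 and 1358 CPM against 3156 to 6397 CPM in other cells. Car1 had 50.2 against 1062 CPM. Mfsd2b, an exporter of sphingosine phosphate shared by red cells and platelets, was the gene of that list that was at least 2 times higher, at 98.8 against 40.6 CPM. All 17 granulocyte and monocyte genes were at least 2 times lower, but their summed level varied from 1288 to 13410 CPM between pools of members. The 8 macrophage genes summed to at most 9.87 CPM. Of 8 listed basophil and mast cell genes of at least 5 CPM, 7 were at least 2 times lower. Of 7 listed lymphoid genes of at least 5 CPM, 5 were at least 2 times lower. The summed level of the lymphoid list was not low, at 426 to 641 CPM in members against 432 to 632 CPM in other cells.

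To describe variation among the members, those of each pool were divided into low, middle and high groups of near-equal size by Pf4 per 10000 UMIs. The groups held 312, 309 and 307 cells, with median values of 6.999, 31.6 and 90.4 Pf4 UMIs per 10000. Pf4 set the groups, and no test was made. Vwf had 26.0, 63.2 and 131 CPM from the low to the high group and was higher in the high than in the low group in 8 of 8 pools. With each member thinned to 5373 UMIs, between 4.55% and 20.9% of the low group and between 28.6% and 60.0% of the high group held a Vwf UMI, by pool. Serpine2 had 24.0, 69.5 and 188 CPM, Gucy1a3 (a nitric oxide receptor chain) 19.8, 46.8 and 70.4 CPM, Cd9 436, 683 and 1172 CPM, and Rap1b 553, 821 and 1135 CPM, each higher in the high group in 8 of 8 pools. Itgb3 had 17.6, 24.8 and 78.7 CPM, to which the single cell of CVT pool 6 contributed. Hspa5, the chaperone of the secretory pathway, had 290, 324 and 546 CPM, again higher in 8 of 8 pools.

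Other genes had lower levels where Pf4 was high. Vim, the intermediate filament of immature and mesenchymal cells, had 144, 74.9 and 25.5 CPM, Car2, a carbonic anhydrase of both lineages, 714, 567 and 354 CPM, and Myb 121, 94.8 and 73.8 CPM, each lower in the high group in 8 of 8 pools. Cpa3, a mast cell protease also present in early progenitors, had 39.8, 12.96 and 2.23 CPM, and Ect2 7.18, 1.26 and 0.568 CPM. Cd34 had 63.2, 51.0 and 34.5 CPM, higher in the high group in 1 of 8 pools. The summed level of the G2 and mitosis list was higher in the high than in the low group in 4 of 8 pools, with Mki67 at 133, 102 and 121 CPM and Cdc20, an activator of mitotic exit, at 83.2, 65.9 and 57.1 CPM. The neutrophil gene Camp was at 1759, 283 and 169 CPM, but a single cell held 90.4% of its UMIs in CVT pool 3 and 93.5% in SPF pool 7. The share of members with Elane or Mpo at 3 UMIs or more was 18.9, 21.7 and 19.5% in the low, middle and high groups. In the low group 12.5% of the cells were among the top 5% of Scrublet scores of their pool, against 7.12% and 1.95% of the middle and high groups. The part of cell pairs in the low group was not tested.

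**Figure D2:**
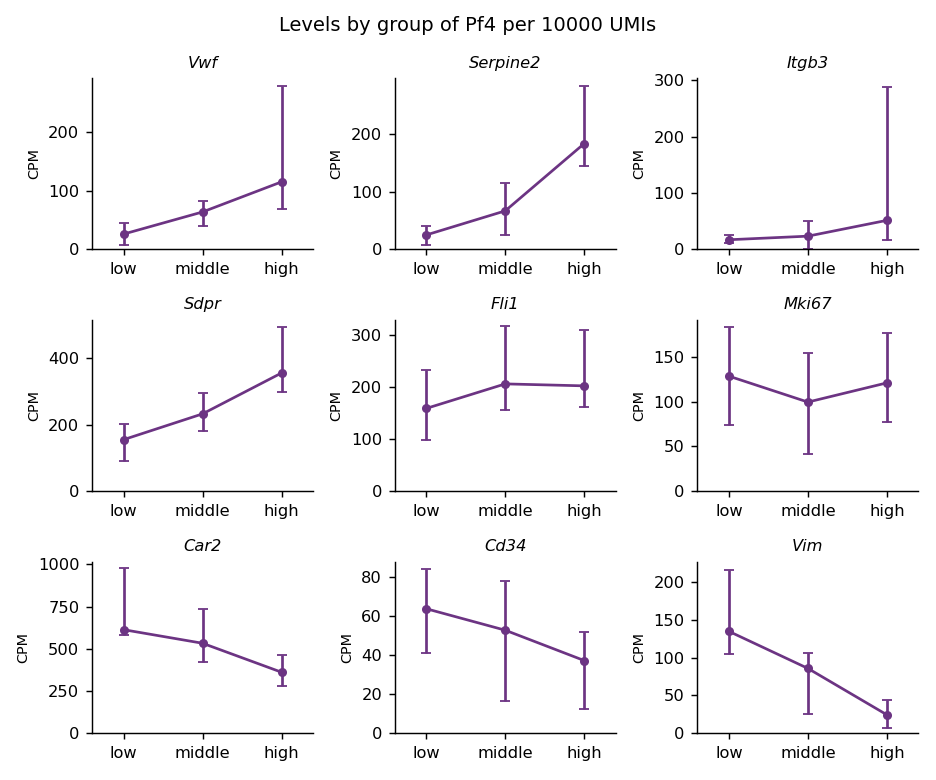
Level in CPM of 9 genes in the low, middle and high groups of members by Pf4 per 10000 UMIs. Points are medians over the 8 pools and bars span the lowest to the highest pool. Vwf, Serpine2, Itgb3 and Sdpr climb, Car2, Cd34 and Vim decline, and Mki67 does neither.

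The first question on housing was whether the share of these cells differed. Among CVT mice, 3.18, 3.38, 3.11 and 3.19% of the cells of pools 3, 4, 5 and 6 were members. Among SPF mice, the shares were 2.60, 2.57, 1.70 and 3.99% in pools 1, 2, 7 and 8. The CVT pools lay close together, and the SPF pools lay on both sides of them. The mean share was 3.21% ± 0.114 (SD, n = 4 pools) in CVT and 2.71% ± 0.949 (SD, n = 4) in SPF, a difference of 0.4997 percentage points that was smaller than the spread of the SPF pools (exact permutation test, two-sided, p = 0.457, smallest possible p = 0.0286). With the pools of mice 1 to 10 alone the means were 3.28 and 2.58%, and with those of mice 11 to 20 they were 3.15 and 2.84%. The result rested on SPF pool 8, since without it the difference was 0.926 points (exact permutation p = 0.0286). With every cell thinned to 2759 UMIs before the gate, 320 cells were members, and the shares were 1.19% ± 0.145 and 0.853% ± 0.310 (exact permutation p = 0.114). A share of sorted cells does not give the number of cells in the marrow.

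**Figure D3:**
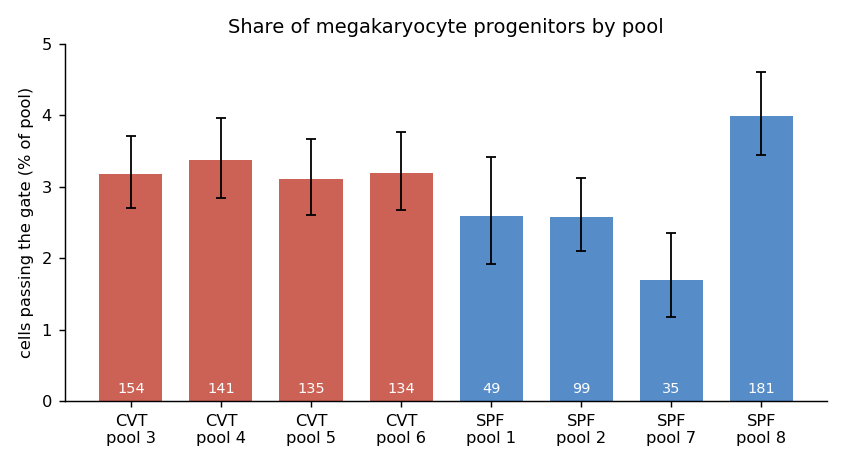
Members as a percent of the cells of each pool (bars from 0, CVT red, SPF blue), with exact binomial 95% intervals that cover counting error only and the number of members at the foot of each bar. The CVT bars stand between 3.11 and 3.38%, and the SPF bars between 1.70 and 3.99%.

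Within the members, 4 shares of cells were compared after thinning to 5373 UMIs, which left out 47 shallower members, 30 of them CVT. A Vwf UMI was held by 31.3, 26.3, 28.6 and 31.5% of members in CVT pools 3 to 6 and by 22.7, 26.0, 20.6 and 26.6% in SPF pools 1, 2, 7 and 8. The means were 29.4% ± 2.47 and 24.0% ± 2.84 (SD, n = 4 each, exact permutation p = 0.0571, adjusted p = 0.229 over 4 comparisons), and the groups overlapped between CVT pool 4 and SPF pool 8. With all UMIs the shares were 43.6% ± 4.91 and 39.4% ± 6.61. The share with a UMI of Slamf1, a marker of stem cells and early megakaryocyte progenitors, was 8.12% ± 2.69 in CVT and 6.003% ± 4.19 in SPF (adjusted p = 0.686, same exact permutation test). The share with a UMI of the late genes Ppbp, Gp6 or Treml1 was 40.3% ± 4.35 and 42.2% ± 3.63 (exact permutation, adjusted p = 0.686). It was mostly a share with Treml1, since 326 thinned members held a UMI of Treml1 and 68 one of Ppbp or Gp6. The share with the proliferation genes Mki67 or Top2a was 48.7% ± 3.13 and 49.4% ± 3.78 (exact permutation, adjusted p = 0.829). With 4 pools against 4, no single share adjusted over 4 comparisons could have reached an adjusted p below 0.114, so these values do not show that the shares were alike.

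Gene by gene, 5 genes changed between CVT and SPF members, and all 5 were higher in CVT and belong to granulocytes and monocytes. Among 8074 genes tested by edgeR's quasi-likelihood test on UMIs summed per pool, 0.0619% were called higher and 0% lower at an adjusted p of 0.05, while 2.12% were higher and 1.77% lower at an unadjusted p of 0.05. Elane, neutrophil elastase, stood at 419, 458, 473 and 226 CPM in the members of CVT pools 3 to 6 and at 44.3, 68.5, 22.3 and 134 CPM in SPF pools 1, 2, 7 and 8. Every CVT pool was above every SPF pool, and the log2 fold change was 2.32 ± 0.286 (SE, adjusted p = 8.37e-04). Ly6c2, a surface antigen of monocytes and granulocyte precursors, was 68.3 ± 19.4 CPM in CVT and 16.8 ± 5.80 CPM in SPF (log2 1.94 ± 0.237, adjusted p = 8.37e-04). Prtn3, proteinase 3, was 359 ± 63.3 against 144 ± 53.4 CPM (log2 1.25 ± 0.175, adjusted p = 0.00317). Mpo, myeloperoxidase, was 354 ± 91.4 against 93.8 ± 72.5 CPM (log2 1.71 ± 0.291, adjusted p = 0.0243), and Ctsg, cathepsin G, 253 ± 37.7 against 72.5 ± 56.5 CPM (log2 1.58 ± 0.268, adjusted p = 0.0243). The calls of Mpo and Ctsg were lost with DESeq2 (adjusted p = 0.713 and 0.599), with Pf4 of 5 or more UMIs (edgeR adjusted p = 0.0967 for both) and without any of pools 1, 2, 3, 4 or 7, and without SPF pool 8 their log2 fold changes were 2.43 and 2.42. CVT and SPF did not overlap for any of the 5 genes, as was so for 0.941% of tested genes in that direction and 2.14% in the other.

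A large share of the Elane transcripts lay in few cells. The 20 members with 10 or more Elane UMIs were 15 CVT cells, 4, 5, 3 and 3 in pools 3 to 6, and 5 SPF cells, all in pool 8. They held between 15 and 471 Elane UMIs and a median of 22098 UMIs in all, above the median of 9327 of all members, and 15 of the 20 were among the top 5% of Scrublet scores of their pool. In the CVT pools these 15 cells carried 75.4% of the members' Elane UMIs, and a single cell carried 75.6% of those of pool 5. The median member held 1 Elane UMI in CVT pools 3, 4 and 6 and 0 in pool 5. Without the 20 cells, which were chosen by a gene under test, Elane was 101 ± 36.2 CPM in CVT and 52.1 ± 23.6 CPM in SPF (log2 0.81 ± 0.246, edgeR adjusted p = 0.9999). Prtn3 was 186 ± 15.7 against 130 ± 31.4 CPM, Mpo 150 ± 46.0 against 72.4 ± 36.5 CPM, Ctsg 88.4 ± 15.98 against 54.0 ± 21.8 CPM and Ly6c2 34.5 ± 6.60 against 16.8 ± 5.79 CPM. All 5 stayed higher in CVT, with log2 fold changes from 0.48 to 0.94 (edgeR, unadjusted p from 5.44e-04 to 0.00759). The pools still did not overlap for Ly6c2, Prtn3 and Mpo, and overlapped for Elane and Ctsg. Of 7986 genes 0 were called, with 157 higher and 140 lower at an unadjusted p of 0.05. Prtn3 was less concentrated than Elane, with a UMI in 64.4 to 84.4% of the members of CVT pools and 38.7 to 52.5% of its UMIs in the top 3 cells of a pool, against 61.8 to 87.8% for Elane. Without the top 5% of Scrublet scores 0 of 7720 genes were called, with 170 higher and 134 lower at that p, and Elane was 1.63 ± 0.393 on the log2 scale (edgeR adjusted p = 0.616). DESeq2 called 4 genes on all members, namely Ly6c2, Elane, Prtn3 and Plac8 (the last named after its values were seen), and was not run on these subsets.

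The 5 genes were also measured in the other cells of the pools, where CVT and SPF overlapped for each, and the values of Elane are given. The other cells had Elane at 1865, 1987, 1387 and 1762 CPM in CVT pools 3 to 6 and at 1160, 1173, 1313 and 1524 CPM in SPF pools 1, 2, 7 and 8. The log2 fold change there was 0.49 ± 0.128 (edgeR adjusted p = 0.655). Of 13052 genes 0 were called in other cells, with 403 higher and 549 lower at an unadjusted p of 0.05. Cells gated for Gata2 and Apoe without Pf4 had Elane at 1437, 1123, 661 and 933 CPM in CVT pools 3 to 6. In SPF pools 1, 2, 7 and 8 they had 650, 432, 398 and 636.5 CPM, below every CVT pool, and no test was made. In the stem gate the groups overlapped, at 69.45 to 981 CPM in CVT and 37.6 to 325 CPM in SPF. In erythroid-gated cells Elane was 346, 318, 141 and 226 CPM in CVT pools and 39.2, 169, 84.4 and 187 CPM in SPF pools (log2 1.07 ± 0.357, edgeR adjusted p = 1). A share of members and of erythroid-gated cells held an Elane UMI in every pool. In CVT pools 3 to 6 it was 65.6, 76.6, 43.7 and 57.5% of members and 85.6, 87.4, 57.0 and 72.2% of erythroid-gated cells. In SPF pools 1, 2, 7 and 8 it was 34.7, 47.5, 17.1 and 50.8% of members and 40.7, 66.3, 40.8 and 67.4% of erythroid-gated cells. The parts of cell pairs, of free RNA and of transcription in the members themselves in the 5 called genes were not tested.

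**Figure D4:**
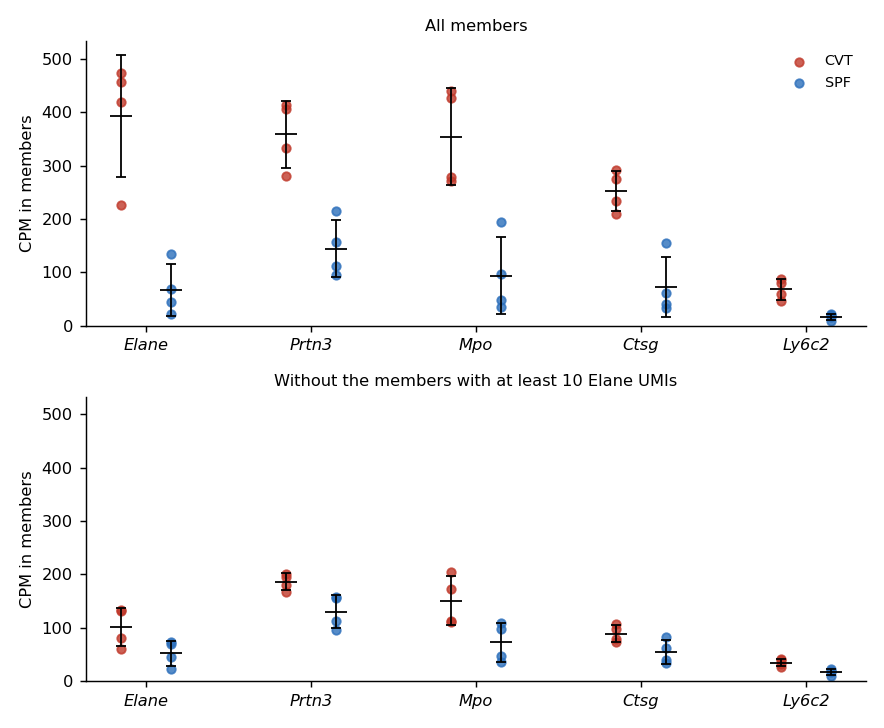
Level in CPM of the 5 called genes in the members of each pool (points, CVT red, SPF blue), with the mean and SD over 4 pools (black), for all members (top) and without the 20 members with at least 10 Elane UMIs (bottom). Elane in CVT falls from a mean of 394 to 101 CPM between the panels and in SPF from 67.3 to 52.1 CPM.

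No gene of the platelet lists was called among the 8074. Without the filter on low counts, 78 of 14548 genes were called, and 12 of these were of the platelet lists. Gp1bb (edgeR, log2 0.46 ± 0.106, adjusted p = 0.00404) and Gp9 (log2 0.43 ± 0.115, edgeR adjusted p = 0.0333) were among them, both highest in CVT pool 6. The others were Alox12, Cd226, Clec1b, Clu, Gp6, Itgb3, Myl9, P2ry12, Ppbp and Thbs1. The single cell of CVT pool 6 described above held most of the UMIs of Alox12, Clec1b, Myl9, Ppbp and Thbs1. With the filter kept and the gate genes left out, 0 of 14 tested platelet receptor genes were called. Of these, 2, Clec1b and F2rl2, were higher in CVT at an unadjusted p under 0.05, as were 2.12% of all 8074 genes. The median log2 fold change of the 14 was 0.12 against 0.01 over all genes. Of 10 granule and secreted genes without Pf4, 0 were called and 4 were higher at that p, namely Ppbp, Clu, Timp3 and Serpine2. Clec1b was 9.49, 20.9, 9.11 and 262 CPM in CVT pools 3 to 6 and between 8.22 and 19.95 CPM in SPF pools, so pool 6 alone was high. Its log2 fold change was 2.75 ± 0.979 with all members and 0.35 ± 0.328 without the 7 members with 5 or more Ppbp UMIs (edgeR, adjusted p = 0.9999 and 0.9997). Those 7 were chosen by their Ppbp UMIs, so the value of Ppbp without them is no test of it. For Ppbp the value turned from 3.04 ± 1.10 to -0.51 ± 0.272 without those 7 (edgeR, adjusted p = 0.9999 and 0.9997), and for Gp1bb it fell from 0.45 to 0.08. Timp3, an inhibitor of matrix proteases, was 0.50 ± 0.206 and 0.41 ± 0.212, and Vwf 0.38 ± 0.208 and 0.21 ± 0.167. The 21 transcription factor genes had 0 calls and none at an unadjusted p under 0.05, and their log2 fold changes lay between -0.28 and 0.18. The 18 tested genes of thrombopoietin and cytokine signalling likewise had none. Neither the 22 tested genes of G2 and mitosis nor the 16 of S phase had one.

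Among the other lists, 15 granulocyte and monocyte genes were tested, with the 5 calls. At an unadjusted p under 0.05, 8 were higher, against 2.12% of all genes tested, and the median log2 fold change was 1.04. S100a8, S100a9, Camp and Ngp, the granule and cytoplasmic genes of later neutrophils, were not called and ranged from 0.38 to 0.59. Of 14 erythroid genes 0 were called. Car2 was at 498, 470, 439 and 472 CPM in CVT pools 3 to 6 and at 640, 678, 574 and 558 CPM in SPF pools, lower in every CVT pool, with a log2 fold change of -0.34 ± 0.0822 (edgeR, unadjusted p = 5.80e-04, adjusted p = 0.468). Of 16 interferon-stimulated genes 0 were called and 2, Isg15 and Ifi27, were higher at an unadjusted p under 0.05. The 9 heat shock and 81 ribosomal protein genes had 0 calls, and of the 2 basophil and mast cell genes and 3 lymphoid genes tested 0 were called.

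Outside the lists, the largest values among genes with unadjusted p under 0.05 and pools that did not overlap were Hist1h1c, a linker histone, at a log2 fold change of 1.501 ± 0.463, and in the other direction Ccl27a (-1.34 ± 0.336), 2200002D01Rik (-0.94 ± 0.322), Trak1 (-0.89 ± 0.373), Nsmf (-0.86 ± 0.308) and Zbtb5 (-0.85 ± 0.302). None passed edgeR's adjustment over the 8074 genes, where Ccl27a had an adjusted p of 0.555 and the others 0.9999. Without the filter on low counts Hist1h1c did pass (log2 1.505 ± 0.163, edgeR adjusted p = 3.764e-17). Its SE fell there from 0.463 at nearly the same log2 fold change, while its CVT pools ran from 45.5 to 241 CPM. That p-value therefore does not measure the spread between pools. Ccl27a, a chemokine gene, was 4.60 ± 1.77 CPM in CVT and 13.5 ± 3.03 CPM in SPF. Hist1h1c was 241 CPM in CVT pool 6, and without the members with 5 or more Ppbp UMIs its log2 fold change was 0.50 ± 0.160.

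Genes of the immediate early response, which cells switch on within minutes of a stimulus, differed between pools of the same housing. Fosb, which encodes a subunit of the AP-1 factor, was 130 and 201 CPM in CVT pools 3 and 4 but 15.2 and 14.9 CPM in CVT pools 5 and 6. In SPF pools 1, 2, 7 and 8 it was 19.95, 66.7, 25.1 and 39.5 CPM. A Fosb UMI was found in 60.4 and 80.1% of the members of CVT pools 3 and 4 and in 11.9 and 10.4% of those of pools 5 and 6. In the other cells Fosb was 88.0 and 106 CPM in CVT pools 3 and 4 and between 13.8 and 62.5 CPM in the remaining pools. By the labels, mice 1 to 10 went into the pools numbered up to 4, and mice 11 to 20 into the later ones. The log2 difference of CVT from SPF was 1.91 in the first set and -1.05 in the second, and that change between sets passed the adjustment over 8074 genes (edgeR interaction, log2 -2.97 ± 0.485, adjusted p = 0.0465), the only gene to do so, while 494 genes had an unadjusted p under 0.05. Jun followed with an interaction of -1.51 ± 0.275 (edgeR adjusted p = 0.0971), at 376 and 619 CPM in CVT pools 3 and 4 and 162 and 147 CPM in CVT pools 5 and 6. All 11 tested genes of this list had a log2 fold change above 0 over all pools, as had 4125 of all 8074 genes. Of the 11, 4 were higher at an unadjusted p under 0.05 (edgeR), against 2.12% of all 8074 genes, and 0 were called. All 11 were above 0 in the pools of mice 1 to 10. In those of mice 11 to 20, Fos, Fosb, Jun, Ier2, Ier3, Dusp1, Zfp36 and Btg2 were below 0, and Junb, Jund and Egr1 above it.

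**Figure D5:**
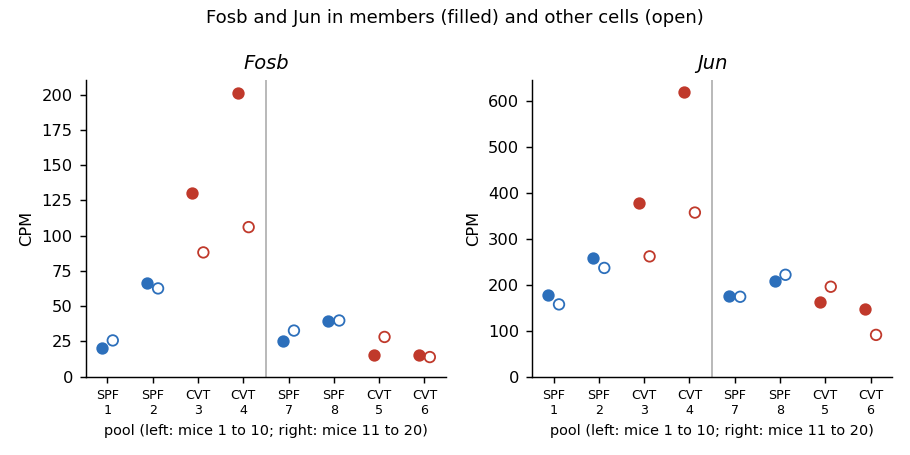
Level in CPM of Fosb (left) and Jun (right) by pool in members (filled) and other cells (open), CVT red and SPF blue, with the pools of mice 1 to 10 left of the line and those of mice 11 to 20 right of it. In members Fosb reaches 130 and 201 CPM in CVT pools 3 and 4 and stays at or below 66.7 CPM elsewhere.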

How the data were processed

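Single KL cells of 8 pools were captured with the 10x Genomics droplet method. The authors deposited raw UMI counts per gene and cell, without normalization, and the submitters' processing notes name Cell Ranger and mm9 (version and annotation not given in the sources used here). The number ending a cell's name was taken as its pool and matched to the number in the sample's description. The sources used here do not state that match, and every housing comparison rests on it. All 29891 cells and 27998 genes were used. The members and gene lists were chosen with earlier results of these data known. Counts were summed per pool over members and tested with edgeR 4.0.16 (glmQLFit, filterByExpr, TMM), with DESeq2 1.42.0 as an alternative (R 4.3.3), and shares by exact permutation over 70 regroupings (scipy 1.17.1). The test recovered 81% of genes changed 2 times in simulated counts of 8074 genes, with 9 false calls of 171. The simulated counts had a dispersion set by the mean level alone and held no single cells of very high counts. The recovery therefore does not apply to genes such as Ppbp, Clec1b and Hist1h1c, which varied more between pools. Scrublet in scanpy 1.11.5 called 25 cells (0.0836%) and was taken not to have worked, so the 5% of cells with the highest scores per pool were removed instead as an alternative. Leading genes were those with the largest ratio to other cells above 50 CPM (20 genes, of which 2 are not reported here), and CPM ratios carry a pseudocount of 1. Further genes named for housing were all called ones and up to 5 per direction with unadjusted p under 0.05 and non-overlapping pools, beside every list. Mice within a pool were not separated, so p-values measure the spread between pools. The fit without the low-count filter is an exception. Its SEs for the 5 called genes, Gp1bb, Gp9 and Hist1h1c were smaller at nearly the same fold changes, so its p-values do not measure that spread. Other alternatives were RLE factors, no low-count filter, a block for the pool set, Pf4 of at least 5, no Ermap condition, a filter on cells (1000 genes, 10% mitochondrial), thinned or unthinned UMIs and each pool left out. Intervals of shares are Clopper-Pearson.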

Additional observations from a re-analysis of the deposited data

Results flagged for a closer look

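Values were set apart when the highest or lowest pool of a group passed Dixon's 95% critical value for 4 pools, which chance passes in about 5% of the 44 groups examined. In CVT pool 6, Gp1bb was 496.6 CPM, Gp9 was 315.4 CPM and Hist1h1c was 241.5 CPM in members, each far above the other CVT pools, and that pool holds the cell with 1175 Ppbp UMIs. Pf4 was 5605 CPM in the members of SPF pool 2, above the other SPF pools at 4646 to 4690 CPM. The housing difference of Fosb differed between the pools of mice 11 to 20 and those of mice 1 to 10 by -2.97 on the log2 scale (edgeR interaction, adjusted p = 0.0465), with 1.91 in the pools of mice 1 to 10 and -1.05 in the others. Pool set and any difference in handling between the sets cannot be told apart.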

How the results depend on the processing

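The CVT minus SPF difference in the share of members stayed above 0 under every alternative run, between 0.160 and 0.926 points with a pool left out, and passed the threshold only without SPF pool 8 (exact permutation p = 0.0286). The difference in the Vwf share also stayed positive (4.28 to 6.45 points with a pool left out). That in the Mki67 or Top2a share, -0.662 points, was 1.32 without the top 5% of Scrublet scores and lay between -2.42 and 0.586 with a pool left out, that in Slamf1 between 0.121 and 3.15, and that in the late genes between -3.57 and -0.198. The count of 5 called genes became 78 with every gene of at least 1 UMI, 3 with Pf4 of 5 or more, 0 without the top 5% of Scrublet scores, 0 without members with Elane or Mpo at 3 or more and 0 without those with at least 10 Elane UMIs (edgeR, with 157 to 170 genes higher and 134 to 140 lower at an unadjusted p of 0.05 in these last 3). The count was 5 with RLE factors, 7 with the pool set block and 6 without members with 5 or more Ppbp UMIs, each with all 5 genes among them, and 4 with DESeq2, of which 3 were shared. It lay between 3 and 8 with a pool left out (3 without any of pools 1, 2, 3, 4 or 7, where Mpo and Ctsg were lost, as with DESeq2 and with Pf4 of 5 or more, and 8 without CVT pool 6, where Hspa1a, Jund and Ms4a3 were gained). The log2 fold change of Itga2b, -0.00134 with all members, changed sign with every gene of at least 1 UMI (0.0118), DESeq2 (0.0110), the pool set block (0.00479), without the top Scrublet scores (0.0192), without members with Elane or Mpo at 3 or more (0.0371) and without those with at least 10 Elane UMIs (0.0329), and lay between -0.0414 and 0.0471 with a pool left out. Gp9 turned to -0.00272 without members with 5 or more Ppbp UMIs. Where no value above shows a cause, the cause was not tested. The removals by Scrublet score, Ppbp, Elane and Mpo were chosen after seeing the data, and the planned removal of called doublets was not run. Those by Ppbp, Elane and Mpo select on genes under test, so the loss of the Elane and Mpo calls there is no test of them. The cut at 3 Elane or Mpo UMIs took out 35.1, 35.5, 12.6 and 11.9% of members in CVT pools 3 to 6. In SPF pools 1, 2, 7 and 8 it took out 0, 17.2, 0 and 17.7%. No paired analysis was possible because the groups share no replicate numbers in the labels. With 35 to 181 members per pool, small differences in genes of few UMIs were not detectable.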
